A study of Homo sapiens with 12 samples.

Results

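The 6 miRNA described here are hsa-miR-378a-3p, hsa-miR-378a-5p, hsa-miR-378c, hsa-miR-378d, hsa-miR-26a-5p and hsa-miR-26b-5p, out of 1133 in the count table of extracellular vesicles (EV). They were chosen by name as a set with a low point in the vesicles of cardiac progenitors, a choice that used the measured levels themselves. Levels in CPC-EV, and differences between CPC-EV and other groups, are therefore given for these miRNA as a description, and no test that includes CPC-EV is read for them.

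Small RNA was sequenced from 12 EV preparations, 3 independent cultures in each of 4 groups, all from the established hiPSC line iPS(IMR90)-4. hiPSC-EV came from undifferentiated pluripotent cells in E8 medium (day 0, 24 h of conditioning). CPC-EV came from cardiac progenitors in RPMI with B27 lacking insulin (day 6, 72 h). Per the paper, this CPC medium also held IWR-1, used to modulate Wnt signalling. CMi-EV came from immature cardiomyocytes in RPMI with B27 (day 15, 48 h), and CMm-EV from cardiomyocytes matured without glucose, on galactose, oleic acid and palmitic acid (day 35, 48 h). Only 1 line was used, and day and medium differed between all groups, so that these cannot be told apart as sources of a difference. Conditioning time differed as well, except between CMi-EV and CMm-EV. Per the paper, hiPSC and CPC grew as monolayers, and the cardiomyocytes as aggregates in suspension. Culture format cannot be told apart from day and medium either.

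miRNA counts per library ranged from 703415 in hiPSC-EV 1 to 6272455 in CMm-EV 2. Levels are CPM of the miRNA counts after TMM scaling (trimmed mean of M-values), and a count of 0 still allows a level of up to 0.641 CPM in hiPSC-EV 3 and up to 3.65 CPM in CMm-EV 1 (3 counts, counting error only). Of the 6 members, 3 passed the filter for testing, at least 5 CPM in each library of a group: miR-378a-3p, miR-26a-5p and miR-26b-5p. TMM scaling factors were 1.55, 1.19 and 1.75 in CPC-EV but 0.836, 0.601 and 0.499 in CMm-EV, so that the scaling itself differed between groups.

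miRNA are short RNA that guide Argonaute proteins to messenger RNA, mainly through the seed, the bases next to the first one at the 5′ end. The precursor of both miR-378a arms lies in an intron of PPARGC1B, which encodes PGC-1β, a coactivator of genes for mitochondrial biogenesis and oxidative metabolism. miR-378a-3p is abundant in heart and skeletal muscle, where it is known to repress growth factor signalling through IGF1R. The miR-26 precursors lie in introns of CTDSPL, CTDSP2 and CTDSP1, genes for small C-terminal domain phosphatases, and miR-26 is known to restrain the cell cycle through cyclins and the chromatin regulator EZH2.

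The mature sequences show which members share a seed (bases 2 to 8, in capitals) and how close the counted species are to each other. They are taken from RefSeq (GRCh38.p14), where 5 of the 6 members matched.
hsa-miR-378a-3p: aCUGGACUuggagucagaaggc
hsa-miR-378c: aCUGGACUuggagucagaagagugg
hsa-miR-378i: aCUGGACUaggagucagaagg
hsa-miR-378a-5p: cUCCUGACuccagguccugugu
hsa-miR-26a-5p: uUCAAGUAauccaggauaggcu
hsa-miR-26b-5p: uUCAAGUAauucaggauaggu
miR-378a-3p, miR-378c and miR-378i, a family member outside the 6, carry the seed CUGGACU, while miR-378a-5p, from the opposite arm of the same hairpin, has another. Counted from 1 at the 5′ end of the miRNA named first, miR-378a-3p and miR-378i differ by U9A over 21 bases, and miR-378a-3p and miR-378c by G21A and C22G over 22 bases. miR-26a-5p and miR-26b-5p share the seed UCAAGUA and 19 of 21 bases, with the differences C11U and C21U.

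The MIR378A hairpin, with both mature arms in capitals, shows how the arms of 1 precursor were separated in the counts.
MIR378A: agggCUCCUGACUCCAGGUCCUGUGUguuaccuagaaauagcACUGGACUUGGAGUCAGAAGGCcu
It lies at chr5:149732825-149732890 on the plus strand, within an intron of PPARGC1B (GENCODE 44). MIR26A1 lies at chr3:37969404-37969480 (plus strand, intron of CTDSPL), MIR26A2 at chr12:57824609-57824692 (minus strand, intron of CTDSP2) and MIR26B at chr2:218402646-218402722 (plus strand, intron of CTDSP1). MIR378C lies at chr10:130962588-130962668 on the minus strand, outside any other annotated gene, and MIR378I at chr22:41923222-41923297 on the minus strand, overlapping an exon of TNFRSF13C. The same miR-26a-5p comes from 2 loci, so its counts cannot be assigned to CTDSPL or CTDSP2.

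The low point in CPC-EV held for part of the set. The mean TMM-normalized level was lowest in CPC-EV for 3 of the 6 members (miR-378a-3p, miR-378d and miR-26a-5p), beside 19.9% of the 367 miRNA expressed in at least 1 group. All 3 CPC-EV libraries lay below the 9 others for 1 member, miR-378a-3p, beside 3.27% of the expressed miRNA. Since the members were chosen on this course, nothing is read from these counts. miR-26b-5p went against the description, with its lowest mean in hiPSC-EV, and miR-26a-5p was lowest in CPC-EV under TMM, median-of-ratios scaling and the authors' RPM but not with library size only. miR-378a-5p, miR-378c and miR-378d had too few counts to place a low point.

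miR-378a-3p had TMM-normalized levels of 3016, 3478 and 4936 CPM in the hiPSC-EV libraries and 439, 607 and 495 CPM in CPC-EV. In CMi-EV, miR-378a-3p stood at 1233, 1259 and 2430.3 CPM, and in CMm-EV at 5327, 4507 and 5493 CPM. The highest CPC-EV library lay below the lowest of the 9 others, and CMi-EV lay between CPC-EV and hiPSC-EV without overlap with either. In mean levels, CMm-EV (5109 ± 528, SD, n = 3) came first, followed by hiPSC-EV (3809.8 ± 1002), CMi-EV (1641 ± 684) and CPC-EV (514 ± 85.3). The mean in hiPSC-EV was 7.42 times and the mean in CMm-EV 9.95 times that in CPC-EV, or 4.98 and 4.37 times with library size only, where hiPSC-EV came first (3764 CPM, beside 3298 CPM in CMm-EV). These levels rest on 1142 to 2442 counts of miR-378a-3p per CPC-EV library and on up to 23115 in hiPSC-EV 3.

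miR-26a-5p ranked between 3 and 6 among all miRNA in each of the 12 libraries. Its share of miRNA counts was 4.78%, 6.64% and 7.48% in hiPSC-EV, 6.04%, 6.64% and 6.00% in CPC-EV, 5.78%, 5.99% and 6.65% in CMi-EV, and 7.56%, 5.61% and 4.44% in CMm-EV. As a share, miR-26a-5p therefore had no low point in CPC-EV, and the range of each of the other groups overlapped that of CPC-EV. On the TMM scale, the miR-26a-5p level was 39118, 66436 and 89472.5 CPM in hiPSC-EV, 38999, 55790 and 34374 CPM in CPC-EV, 55208, 53177 and 65821 CPM in CMi-EV, and 90580.3, 93513 and 89079 CPM in CMm-EV. CMm-EV lay above CPC-EV and CMi-EV without overlap on this scale, whereas hiPSC-EV, CPC-EV and CMi-EV overlapped. The log2 ratio of the miR-26a-5p mean in CMm-EV to that in CPC-EV was 1.08 under TMM, 1.01 under median-of-ratios scaling, 0.66 in the authors' RPM and −0.08 with library size only, where the direction flipped.

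miR-26b-5p, with the same seed, was far less abundant and took another course. Its TMM-normalized level was 89.6, 137 and 213 CPM in hiPSC-EV, 315, 446 and 87.1 CPM in CPC-EV, 557, 421 and 554 CPM in CMi-EV, and 465, 547 and 718 CPM in CMm-EV. The hiPSC-EV libraries lay below all CMi-EV and CMm-EV libraries, CMi-EV and CMm-EV overlapped, and CPC-EV spread from the lowest miR-26b-5p level of all 12 libraries (CPC-EV 3) into the range of CMi-EV. In mean levels, CMm-EV (576 ± 129, SD, n = 3) and CMi-EV (511 ± 77.5) were followed by CPC-EV (283 ± 182) and hiPSC-EV (146 ± 62.4). The log2 ratio of the miR-26b-5p mean in CPC-EV to that in hiPSC-EV was 0.95 under TMM, 1.31 under median-of-ratios scaling, 1.47 with library size only and 1.197 in the authors' RPM. That of CMm-EV to CPC-EV was 1.03 under TMM and −0.125 with library size only, where CMm-EV fell below CPC-EV.

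**Figure D1:**
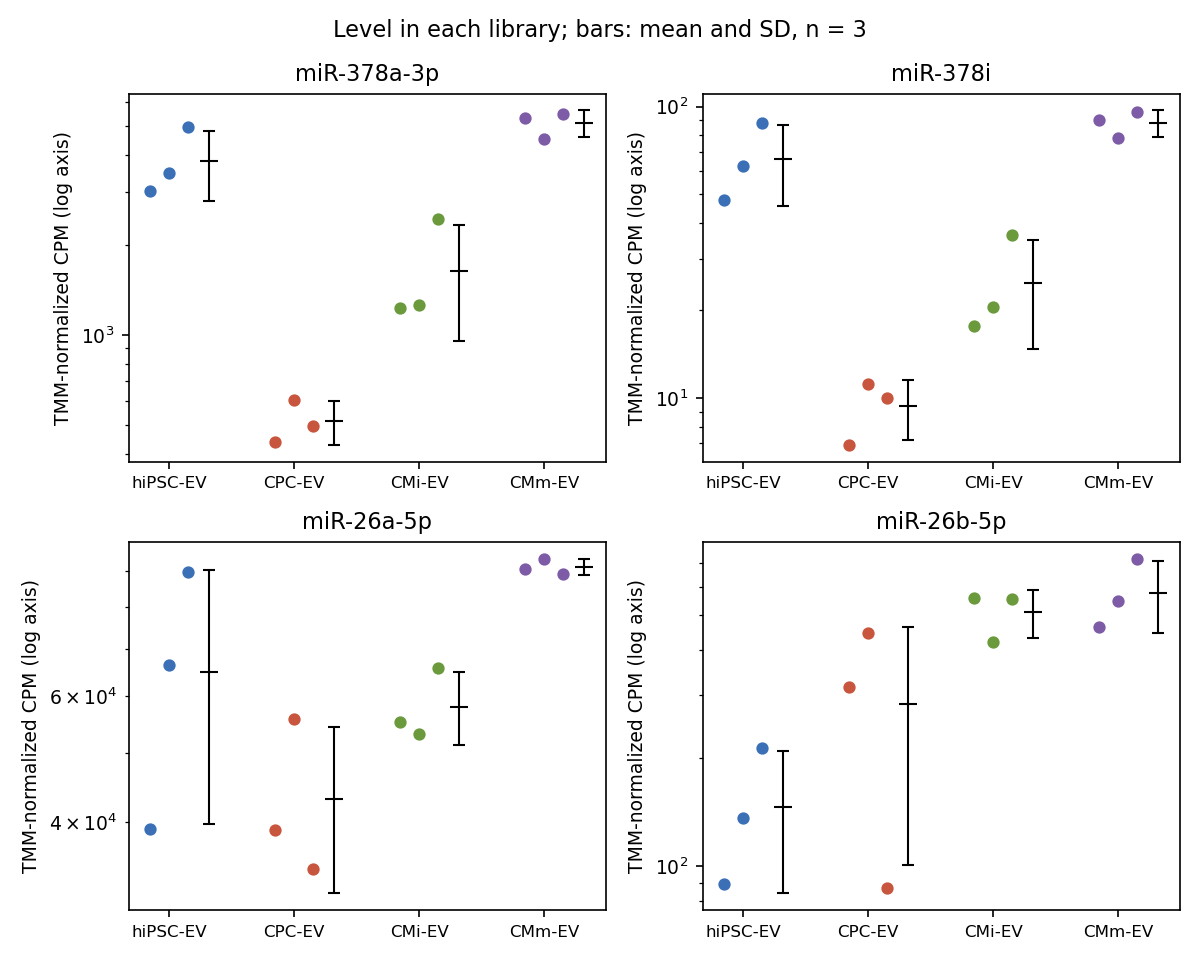
TMM-normalized CPM (log axis) of miR-378a-3p, miR-378i, miR-26a-5p and miR-26b-5p in each of the 12 libraries, with bars for the group mean and SD (n = 3). The 3 CPC-EV libraries lie below the 9 others for miR-378a-3p and miR-378i, overlap with hiPSC-EV and CMi-EV for miR-26a-5p, and span from 87.1 to 446 CPM for miR-26b-5p.

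**Figure D2:**
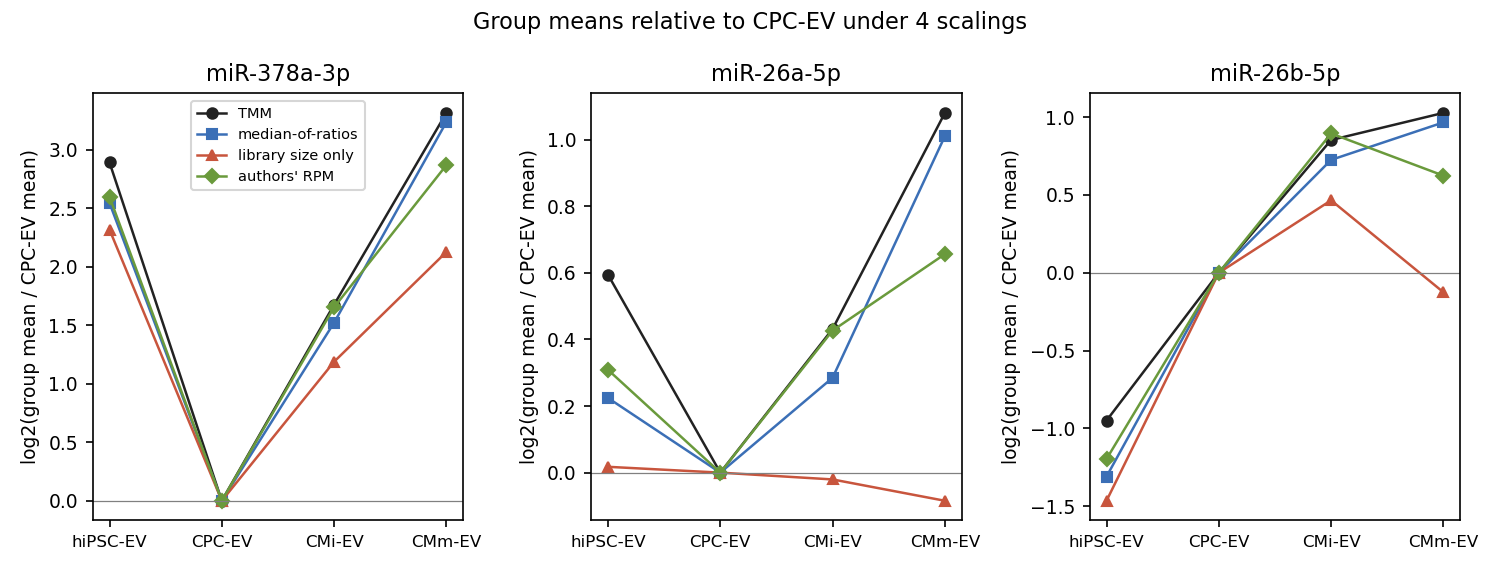
The log2 ratio of each group's mean to the CPC-EV mean for miR-378a-3p, miR-26a-5p and miR-26b-5p, under TMM, median-of-ratios scaling, library size only and the authors' RPM. miR-378a-3p has its minimum in CPC-EV on each of the 4 scales and miR-26b-5p in hiPSC-EV, while the curve of miR-26a-5p is nearly flat with library size only.

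The 3 remaining members were close to the limit of detection. miR-378a-5p had 37 counts in hiPSC-EV 2, 19 in hiPSC-EV 3 and 46 in CPC-EV 1, and none in the 9 other libraries. miR-378c had 10 counts in each of hiPSC-EV 2 and hiPSC-EV 3 and 1 count in CMm-EV 3. Expected counts of miR-378d, which need not be whole because the pipeline can divide a read between features, reached at most 11.7 (hiPSC-EV 3) and were 0, 0.667 and 0.667 in CPC-EV. The lowest mean of miR-378d in CPC-EV thus rests on values under 1 count, and differences of miR-378c and miR-378d between groups were not detectable at this depth.

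Counts on the MIR378A hairpin fell almost wholly on the 3p arm. miR-378a-5p took 0.422% of the counts on both arms in hiPSC-EV 2 (95% Wilson interval 0.306 to 0.581%, counting error only) and 0.0821% in hiPSC-EV 3 (0.0526 to 0.128%), with no count in hiPSC-EV 1 (at most 0.116%). In CPC-EV 1 the miR-378a-5p share was 3.87% (2.92 to 5.13%), whereas CPC-EV 2 and CPC-EV 3 had no miR-378a-5p count, which allows at most 0.123% and 0.226% (3 counts). Within CPC-EV, 1 library carried all counts of this arm. In CMm-EV 2, the library with the most miRNA counts, no count of miR-378a-5p allows at most 0.0177%.

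The design also holds 3 pairs of groups without CPC-EV, which allow a test of the members on samples other than the group they were selected on. These comparisons ask whether the levels at day 0, day 15 and day 35 differed from each other (edgeR quasi-likelihood test, Benjamini-Hochberg adjustment over all tested miRNA, with a call needing an FDR up to 0.05 and an absolute log2 fold change of 1 or more).

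Between CMm-EV and CMi-EV, miR-378a-3p was higher in CMm-EV by 1.48 on the log2 scale (SE 0.30, edgeR adjusted p = 0.016), with the 3 CMm-EV libraries above the 3 of CMi-EV. It was the 1 member of 3 called, beside 16.60% of the 247 miRNA tested. miR-26a-5p had a log2 fold change of 0.48 (SE 0.18, edgeR adjusted p = 0.139) and miR-26b-5p of 0.02 (95% interval −0.56 to 0.60, edgeR adjusted p = 0.982), and both turned negative with library size only (−0.06 and −0.59). The call of miR-378a-3p was lost with library size only (0.94, edgeR adjusted p = 0.0879) and without CMm-EV 1 or CMm-EV 2 (1.498 and 1.55, both with an edgeR adjusted p of 0.0525). The median of all tested miRNA moved from −0.30 under TMM to −0.91 with library size only, and relative to that median miR-378a-3p stood at 1.77 and 1.85, miR-26a-5p at 0.78 and 0.85, and miR-26b-5p at 0.31 and 0.32.

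Between CMi-EV and hiPSC-EV, miR-26b-5p was higher in CMi-EV by 2.03 on the log2 scale (SE 0.41, edgeR adjusted p = 0.00557), and miR-378a-3p was lower in CMi-EV by a fold change just short of the threshold (−0.997, SE 0.33, edgeR adjusted p = 0.0461, not called). miR-26b-5p was the 1 member of 3 called, beside 41.42% of the 338 miRNA tested. The 2 miRNA of the same seed thus had different values in the same libraries, since miR-26a-5p had a log2 fold change of 0.06 (95% interval −0.50 to 0.63, edgeR adjusted p = 0.877), or −0.04 with library size only. Scaled by library size only, and also with no filter, with the replicate number as a term, in the fit on all 12 libraries and without any single CMi-EV library, miR-378a-3p passed both thresholds (−1.05 to −1.65), and under median-of-ratios scaling it passed neither (−0.79, edgeR adjusted p = 0.0881). The median of all tested miRNA lay at −0.55 in this pair, and relative to it miR-378a-3p stood at −0.44, or −0.45 with library size only and −0.40 under median-of-ratios scaling.

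Between CMm-EV and hiPSC-EV, the beginning and end of the course, miR-26b-5p was higher in CMm-EV by 1.64 on the log2 scale (SE 0.49, edgeR adjusted p = 0.025). It was again the 1 member of 3 called, beside 53.57% of the 336 miRNA tested. miR-378a-3p differed by 0.11 (95% interval −0.52 to 0.74, edgeR adjusted p = 0.793) and miR-26a-5p by 0.16 (−0.55 to 0.88, edgeR adjusted p = 0.719), within the spread between replicates, and both turned negative with library size only (−0.19 and −0.10). DESeq2 gave 0.42 for miR-378a-3p (adjusted p = 0.0414), under the fold change needed for a call. The median of all tested miRNA lay at −1.53 here, so that relative to it these members stood at 1.64 and 1.69. Without hiPSC-EV 2, the miR-26b-5p call was lost (1.60, edgeR adjusted p = 0.0906).

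Ratios of 2 miRNA within a library do not depend on how libraries are scaled. miR-26b-5p amounted to 0.229, 0.206 and 0.238 counts per 100 counts of miR-26a-5p in hiPSC-EV, 0.808, 0.800 and 0.254 in CPC-EV, 1.01, 0.792 and 0.841 in CMi-EV, and 0.513, 0.585 and 0.806 in CMm-EV. The 3 hiPSC-EV libraries were the lowest of all 12, and CPC-EV 3 lay next to them, apart from CPC-EV 1 and CPC-EV 2. The log2 ratio, with 0.5 added to both counts, averaged −8.80 ± 0.11, −7.51 ± 0.96, −6.83 ± 0.18 and −7.33 ± 0.33 from day 0 to day 35 (SD, n = 3). Outside CPC-EV, the group the members were selected on, the ratio differed among the 3 groups in an exact permutation test of the F statistic over 280 divisions of the 9 libraries (one-sided, p = 0.00714, Benjamini-Hochberg adjusted p = 0.0119 over 5 ratios, with 0.00357 the smallest p possible). This restriction was chosen after seeing the data. The adjusted p of the exact permutation test was 0.0536 without CMi-EV 1 or CMi-EV 3 and at most 0.0357 without any other single library of the 9.

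miR-378a-3p amounted to 7.71, 5.23 and 5.52 counts per 100 counts of miR-26a-5p in hiPSC-EV, 1.13, 1.09 and 1.44 in CPC-EV, 2.23, 2.37 and 3.69 in CMi-EV, and 5.88, 4.82 and 6.17 in CMm-EV. The ratio was lowest in the 3 CPC-EV libraries, given as a description because both members were selected on that group. Without CPC-EV, where the choice of members bears on the value (an alternative also added after seeing the data), the ratio differed among the 3 other groups (exact permutation test over 280 divisions, p = 0.025, adjusted p = 0.0312 over 5 ratios), with log2 means of −4.04 ± 0.30 at day 0, −5.21 ± 0.40 at day 15 and −4.16 ± 0.19 at day 35 (SD, n = 3). The adjusted p of the exact permutation test was above 0.05 without hiPSC-EV 1 or any single CMi-EV or CMm-EV library (0.0536 to 0.0804), and 0.0402 and 0.0446 without hiPSC-EV 2 and hiPSC-EV 3.

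The 3 ratios that involve the sparse members were set largely by the count of miR-378a-3p and the 0.5 added to zeros. Nothing is read from these ratios about miR-378a-5p, miR-378c or miR-378d. Outside CPC-EV, the ratios with miR-378a-5p and with miR-378c each had p = 0.00714 in the exact permutation test. They are among the 5 ratios of the adjustment. The adjusted p of the other ratios outside CPC-EV is therefore smaller than it would be with larger p for the sparse members.

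**Figure D3:**
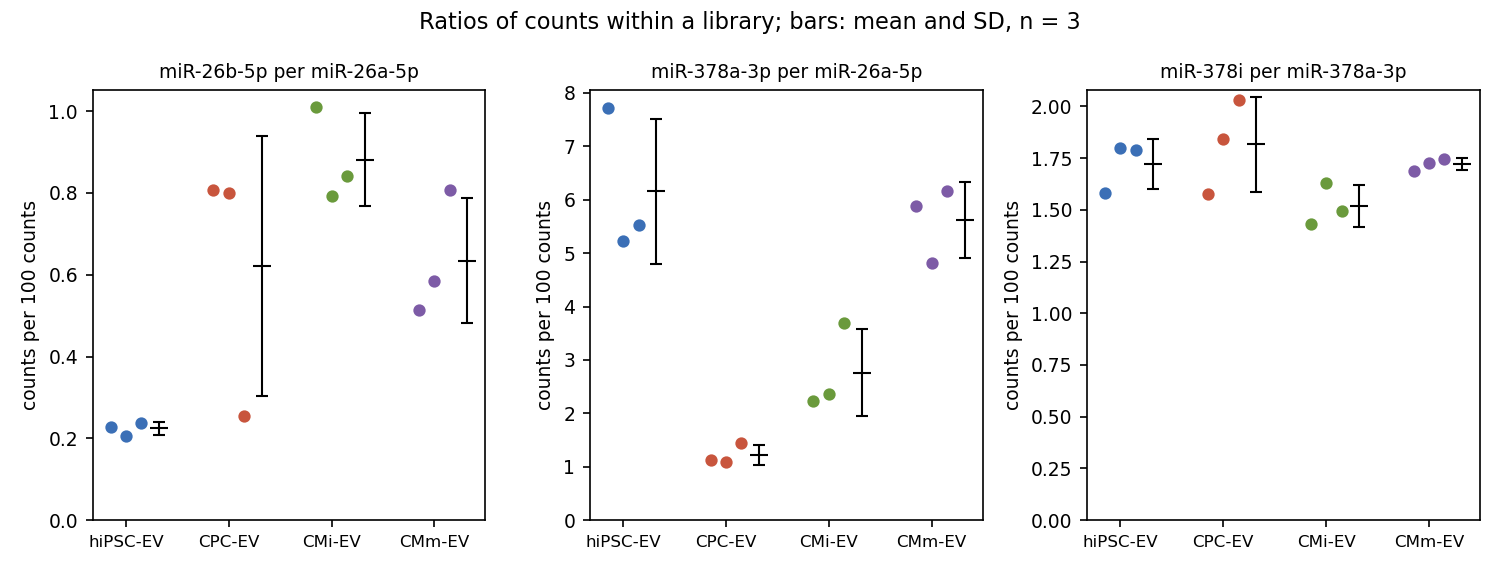
Counts per 100 counts of the second miRNA within each library, for miR-26b-5p per miR-26a-5p, miR-378a-3p per miR-26a-5p and miR-378i per miR-378a-3p, with bars for the group mean and SD (n = 3). miR-26b-5p per miR-26a-5p is lowest in hiPSC-EV, with CPC-EV 3 beside it at 0.254, miR-378a-3p per miR-26a-5p is lowest in CPC-EV, and miR-378i per miR-378a-3p lies between 1.43 and 2.03 in all 12 libraries.

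Of the other miR-378 family members, miR-378i was the 1 with counts in all 12 libraries, at 47.7, 62.5 and 88.2 TMM-normalized CPM in hiPSC-EV, 6.92, 11.2 and 10.1 in CPC-EV, 17.7, 20.5 and 36.3 in CMi-EV, and 90.0, 77.8 and 96.0 in CMm-EV. The CPC-EV libraries were again below the 9 others. miR-378i amounted to 1.72 ± 0.122, 1.82 ± 0.229, 1.52 ± 0.1004 and 1.72 ± 0.0294 counts per 100 counts of miR-378a-3p from day 0 to day 35 (SD, n = 3), so that its course was that of miR-378a-3p at a near constant fraction. Because the 2 sequences differ by U9A alone over the length of miR-378i, separate transcription of miR-378i and reads of miR-378a-3p with a changed base cannot be told apart in the table. The fitted log2 fold change of miR-378i in CPC-EV against the mean of the 3 other groups was −2.48 (SE 0.75, edgeR adjusted p = 0.0304), beside 24.80% of 367 miRNA called. The call was lost with library size only (−1.72, edgeR adjusted p = 0.106), with no filter (edgeR adjusted p = 0.328), with the replicate number as a term (0.0732), and without hiPSC-EV 2, hiPSC-EV 3, CMm-EV 3 or any single CPC-EV library (edgeR adjusted p from 0.0505 to 0.113), and given the shared sequence it is no independent support for the choice of members.

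miR-378b, miR-378e, miR-378f, miR-378g and miR-378h had 22, 2.83, 13, 30 and 10 counts in all 12 libraries together. miR-378j and the seed relatives miR-422a, miR-1297 and miR-4465 were not listed in the table. From the opposite arms of the miR-26 precursors, miR-26a-1-3p (20 counts) and miR-26a-2-3p (7 counts) appeared in hiPSC-EV 3 alone, the library with the highest total in its group. miR-26b-3p had 392 counts in 7 libraries. It passed the filter through CMi-EV alone, so no test of it is given.

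Across the 12 libraries, the miRNA whose log2(TMM CPM + 1) was most like that of miR-378a-3p were miR-378i (Pearson's r = 0.994), miR-21-5p (0.941), miR-149-5p (0.847), miR-340-3p (0.843) and miR-30e-5p (0.820). miR-21-5p, an abundant miRNA of many tissues, averaged 7461, 1501, 5073 and 6955 CPM from day 0 to day 35, with its lowest mean also in CPC-EV. For miR-26a-5p they were miR-30e-3p (r = 0.878), miR-10b-5p (0.876), miR-149-5p (0.861), miR-1180-3p (0.845) and miR-23a-3p (0.831). Between members, r was 0.807 for miR-378a-3p and miR-26a-5p, 0.579 for miR-26a-5p and miR-26b-5p, and 0.179 for miR-378a-3p and miR-26b-5p. These values describe 12 points that share library, scaling and group, and no p is given.

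Other miRNA with the roles named for the set, growth restraint and metabolism, were compared in CPC-EV against the mean of the 3 other groups, which asks whether such miRNA had a low point there too. This contrast averages log levels, so that a call does not make CPC-EV the lowest group. Of 19 miRNA listed as growth-restraining (let-7, miR-15/16, miR-29, miR-34 and miR-101), 12 were tested, 6 of them were called lower and none higher, beside 10.6% lower and 14.2% higher among all 367 tested miRNA, with a median log2 fold change of −2.04 beside 0.15. The 6 called were all let-7, as were 8 of the 12 tested, while miR-15b-5p (0.55), miR-16-5p (0.41) and miR-101-3p (−0.11), named here after their values were seen, were not called. The counts and median include let-7g-5p, let-7i-5p and miR-29a-3p, each of which passed the filter through 1 group alone. Only 2 of the 6 had their lowest mean in CPC-EV under TMM, let-7c-5p and let-7g-5p. For let-7c-5p, hiPSC-EV was lowest under median-of-ratios scaling, with library size only and in the authors' RPM. let-7a-5p was called at −2.06 (SE 0.31, edgeR adjusted p = 0.00049), although its mean was lower in CMi-EV (138 CPM) than in CPC-EV (245 CPM), beside 1682 CPM at day 0 and 4626 CPM at day 35.

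let-7e-5p was also called lower (−3.44, SE 0.73, edgeR adjusted p = 0.0054), with means of 17.5, 40.9, 483 and 9675 CPM from day 0 to day 35. let-7c-5p and let-7g-5p were near or at 0 in CPC-EV (0.124 and 0 CPM), let-7c-5p also in hiPSC-EV (0.142 CPM), so that no fold is given. let-7g-5p, 1 of the 6 called, passed the filter through CMm-EV, its highest group, so nothing is read from its call. These 4 let-7 miRNA had their highest mean in CMm-EV. Unlike miR-378a-3p, let-7a-5p had its lowest mean in CMi-EV and let-7e-5p in hiPSC-EV. Without hiPSC-EV 3 the call of let-7c-5p was lost (edgeR adjusted p = 0.9999).

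Of 15 miRNA listed for metabolism, 11 were tested, with 2 called higher and 3 lower in CPC-EV, beside the same 14.2% and 10.6% of all tested miRNA, and a median of −1.42. These 5 miRNA are counted again below among the endoderm, smooth muscle and cardiomyocyte markers. miR-375, known from pancreatic islets and endoderm, was higher in CPC-EV (5.76, SE 0.56, edgeR adjusted p = 1.99e-05). miR-122-5p, the liver miRNA, was called higher (3.26, SE 0.70, edgeR adjusted p = 0.0054), with means of 0.427, 726, 863 and 734 CPM from day 0 to day 35. Its CMi-EV mean rests on CMi-EV 3 (2015 CPM, beside 304 and 270 CPM). With library size only, the highest miR-122-5p mean was in CPC-EV (728, 1464 and 835 CPM), so that no highest group is named. miR-143-3p (−2.16, SE 0.35, edgeR adjusted p = 0.000941), a smooth muscle miRNA, and miR-1-3p (−2.66, SE 0.65, edgeR adjusted p = 0.0106), a cardiac and skeletal muscle miRNA, were called lower while hiPSC-EV was lower still (306 and 43.6 CPM, beside 2894 and 914 CPM in CPC-EV). miR-499a-5p, encoded in a myosin gene, had no count in CPC-EV and 0.712 CPM in hiPSC-EV. It is among the 3 called lower, but it passed the filter through CMm-EV alone, its highest group, and nothing is read from that call. miR-208b-3p, tested and not called, also passed through CMm-EV alone. The median of −1.42 includes both, and without them the middle value of the list was −0.49 (miR-103a-3p). The miR-1-3p call was lost without CPC-EV 1 or CPC-EV 2 (edgeR adjusted p = 0.0521 and 0.0621). Over the whole table the split of calls moved with the scaling, from 52 higher and 39 lower under TMM to 91 higher and 24 lower with library size only.

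**Figure D4:**
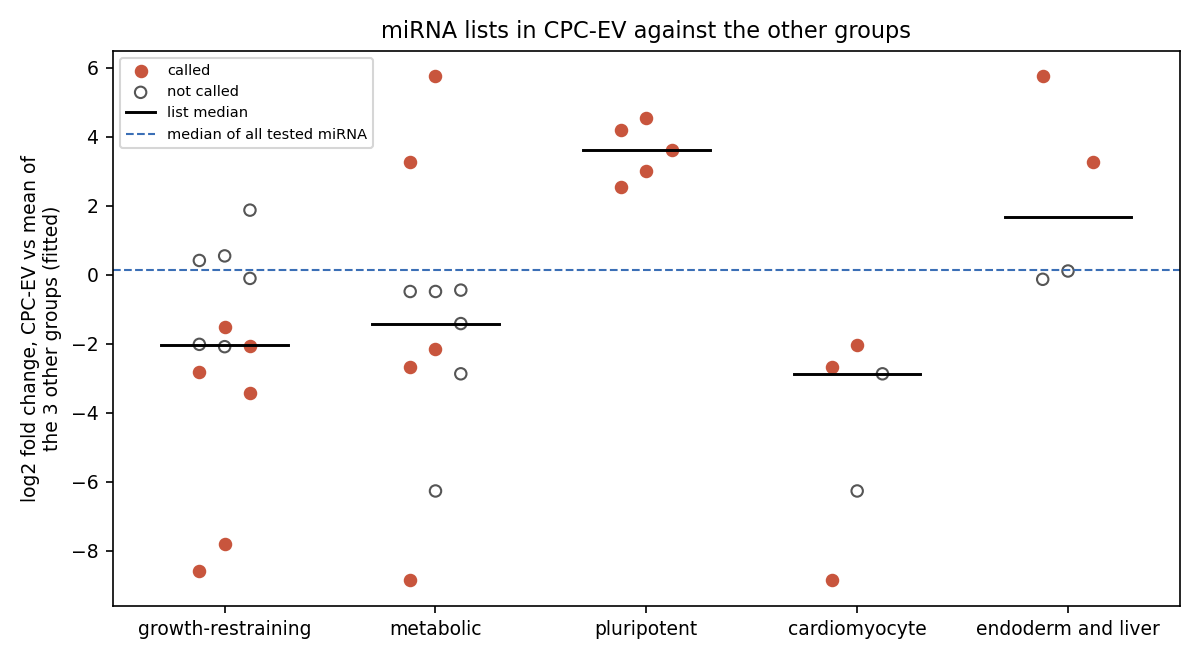
Fitted log2 fold change of CPC-EV against the mean of the 3 other groups for each tested miRNA of 5 lists, with filled points for called miRNA, a black line for the list median and a dashed line for the median of all tested miRNA (0.15). The medians of the growth-restraining (−2.04) and metabolic (−1.42) lists lie below the dashed line, and both include miRNA that passed the filter through 1 group alone. Without miR-499a-5p and miR-208b-3p, the middle value of the metabolic list is −0.49 (miR-103a-3p). Fitted values of miRNA without counts in a group depend on the prior count.

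Markers of the cell types are given for the same groups. The 5 pluripotent miRNA miR-302a-3p, miR-302b-3p, miR-302c-3p, miR-302d-3p and miR-367-3p summed to 186944 ± 20636, 65845 ± 15504, 5389 ± 1351 and 182 ± 105 CPM from day 0 to day 35 (SD, n = 3), with miR-302b-3p the most abundant and miR-367-3p at 0 in CMm-EV. All 5 were called higher in CPC-EV against the 3 other groups, with 0 of the 5 highest there. The 5 cardiomyocyte miRNA summed to 59.1 ± 13.0, 1046 ± 415, 49702 ± 27571 and 99279 ± 94926 CPM in the same order, led by miR-1-3p. In CPC-EV, 3 were called lower (miR-1-3p, miR-133a-3p and miR-499a-5p), while miR-208b-3p was at 0 in hiPSC-EV and CPC-EV. The miR-133a-3p call was lost with library size only and without CPC-EV 1 or CPC-EV 2. Nothing is read from the call of miR-499a-5p, which passed the filter through CMm-EV alone, its highest group. The pluripotent sum fell at each step from day 0 to day 35, unlike miR-378a-3p. The cardiomyocyte sum rose in its means, but CMi-EV (20784 to 75693 CPM) and CMm-EV (37788.5 to 208606 CPM) overlapped. Its last rise rests on CMm-EV 3, where miR-1-3p stood at 203663 CPM, beside 31707 and 47158 CPM in CMm-EV 1 and CMm-EV 2.

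The 4 endoderm and liver miRNA summed to 1795 ± 476, 7386 ± 1334, 4826 ± 2088 and 3171 ± 1156 CPM in that order (SD, n = 3), with the highest mean in CPC-EV, where miR-375 was the most abundant, and 2 of the 4 called higher. The smooth muscle and fibroblast pair miR-143-3p and miR-145-5p summed to 331, 2996, 43063 and 168057 CPM, with 1 of 2 called lower. Of 5 blood and serum miRNA 1 was tested, miR-486-5p, and called lower (−1.14, SE 0.31, edgeR adjusted p = 0.0184), at 7028, 958, 1624 and 826 CPM. That call was lost with library size only (−0.35), median-of-ratios scaling (−0.94), no filter, DESeq2 (−0.94), and without hiPSC-EV 3, CPC-EV 1, CPC-EV 2 or CMm-EV 1 (−0.88 to −1.07). The endothelial miR-126-3p was not called (0.40, SE 0.94, edgeR adjusted p = 0.825). The part of these cell types in the levels of miR-378a-3p and miR-26 was not tested, and in EV RNA fewer vesicles from a cell type and fewer copies per vesicle cannot be told apart.

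Fragments of messenger RNA in the same libraries, in the gencode table of the pipeline, gave little on the hosts and targets of the members. PPARGC1B, the host of MIR378A, had counts in 5 of 12 libraries (at most 51, in CMi-EV 3), CTDSPL in 3 (at most 27), CTDSP2 in 4 (at most 85.1) and CTDSP1 in 4 (at most 44), and none of the 4 passed the filter. PPARGC1B counts in CPC-EV were 0, 0 and 1, so a host transcript low point was not detectable at this depth. In CPC-EV against the 3 other groups, 840 transcripts (24.8%) were called higher and 40 (1.18%) lower, 26.03% of 3381, with a median of 1.70. Depth in the gencode table differed between groups, with 733045 to 1313888 counts per library in CPC-EV. It was 307229 to 1908089 in hiPSC-EV, 218887 to 499442 in CMi-EV and 131183 to 322043 in CMm-EV. The part of depth in this split was not tested.

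Among known targets of miR-378, IGF1R, a growth factor receptor, was tested and not called (−0.95, SE 1.13, edgeR adjusted p = 0.559). Of 10 known targets of miR-26, 3 were tested, and GSK3B, a kinase of glycogen and Wnt signalling, had means of 30.3, 50.4, 0 and 1.56 CPM from day 0 to day 35, while CCND2 (0.82, SE 1.30, edgeR adjusted p = 0.681) and HMGA2 were not called. GSK3B passed the filter through hiPSC-EV alone, so no test of it is given. Of 12 genes of the PGC-1 and oestrogen-related receptor axis, TFAM, a mitochondrial transcription factor, was the 1 to pass the filter, through hiPSC-EV alone, and no test of it is given. Its mean was 56.2 CPM at day 0, 21.8 CPM at day 6 and 0 later. None of 21 genes of fatty acid oxidation reached the filter, so no test of that list was possible with these counts.

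Transcript markers of the labelled cells were present in part. Cardiac progenitor transcripts summed to 1.68, 203, 118 and 78.2 CPM from day 0 to day 35, led in CPC-EV by HAND2 (means of 0, 78.1, 0 and 58.7 CPM), with GATA4 tested and not called and ISL1 not listed. HAND2 passed the filter through CPC-EV alone, so no test of it is given. The 5 pluripotent transcripts summed to 748, 361, 46.5 and 1.77 CPM. LIN28A was called higher in CPC-EV against the 3 other groups (edgeR adjusted p = 0.00662), beside 24.8% of all tested transcripts. Its means were 333, 314, 46.5 and 0 CPM, so that hiPSC-EV was highest. CMm-EV had no LIN28A count, and no fold is given. The other 4 passed the filter through hiPSC-EV alone, so no test of them is given. The 5 cardiomyocyte transcripts summed to 3.56, 262, 3121 and 2179 CPM, and MYH6, MYH7, ACTC1 and MYL7 were not called, while TNNT2 passed the filter through CMi-EV alone. None of the 2 listed endoderm and liver transcripts, AFP and APOB, was tested.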

How the data were processed

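EV RNA and small RNA libraries were made with Norgen kits and sequenced on a NextSeq instrument. Per the paper, Norgen Biotek ran the exceRpt pipeline (hg38, miRBase). From this the authors deposited expected counts (9.11% of non-zero entries for miRNA carried a fraction) and RPM, which they scaled to library totals. The submitters' processing notes name edgeR 3.24.0. No pair of replicates agreed within sampling noise (lowest chi-square per degree of freedom 51.6).

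Expected counts were rounded and tested with edgeR 4.0.16 in R 4.3.3, with TMM scaling and, as alternatives, median-of-ratios factors, library size only, other filters, DESeq2 1.42.0, a fit on all 12 libraries, the replicate number as a term, and each library left out. Intervals of fold changes are the estimate ± 1.96 SE. This multiplier takes no account of the few libraries per group, so these intervals are too narrow. Ratios, permutation tests and figures used scipy 1.17.1, matplotlib 3.10.9, pandas 2.3.3 and numpy 2.4.6 in Python 3.11.15. The fits were tested on simulated data.

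The members and lists were chosen with earlier results of these data known. Named genes are the 6 members, other arms and family members with at least 1 count, host transcripts, the 5 non-member miRNA most correlated with miR-378a-3p and with miR-26a-5p, and from each list up to 4 called members with the smallest FDR or, with none called, up to 2 with the highest mean.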

Additional observations from a re-analysis of the deposited data

How the results depend on the processing

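The number of members with their lowest mean in CPC-EV stayed at 3 with group medians, under 2 of 3 other scalings and without each library, and was 2 with library size only. The number of miRNA called between CMm-EV and CMi-EV was 41, but 27 with the filterByExpr filter and 20 to 60 with a library left out (20 without CMm-EV 2). Calls in the gencode table numbered 880, but 257 with filterByExpr and 377 to 1417 with a library left out (385, 511 and 377 without hiPSC-EV 1, 2 and 3, and 1417 without CPC-EV 3). Outside CPC-EV, the adjusted p of the ratio of miR-26b-5p to miR-26a-5p was 0.0119 to 0.0536, and that of miR-378a-3p to miR-26a-5p 0.0402 to 0.0804, with a library left out. Tests over all 12 libraries include CPC-EV, the group the members were selected on, so nothing is read from their p, which are given for completeness. With a library left out, the adjusted p of miR-26b-5p to miR-26a-5p over all groups was 0.00649 to 0.0732. That of miR-378c to miR-378a-3p was 0.141 with 0.1 added and 0.00195 to 0.143 with a library left out. That of miR-378a-3p to miR-378a-5p was 0.0276 to 0.287, or 0.0119 outside CPC-EV (added after seeing the data). Both ratios were set largely by the count of miR-378a-3p and the value added to zeros. Nothing is read from their p, over all groups or outside CPC-EV. The cause of the other changes was not tested.

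With library size only, log2 fold changes that were not called turned negative for miR-26a-5p in all 3 pairs (CMm-EV and CMi-EV −0.064, CMi-EV and hiPSC-EV −0.038, CMm-EV and hiPSC-EV −0.10), for miR-26b-5p between CMm-EV and CMi-EV (−0.59), and for miR-378a-3p and miR-378i between CMm-EV and hiPSC-EV (−0.19 and −0.20). miR-26a-5p between CMi-EV and hiPSC-EV was also −0.068 with no filter, −0.067 in the fit on all 12 libraries and −0.29 to 0.31 with a library left out (negative without hiPSC-EV 1 or any single CMi-EV library). With a library left out, miR-26b-5p ranged from −0.20 to 0.20 between CMm-EV and CMi-EV (negative without CMi-EV 2 or CMm-EV 3), and between CMm-EV and hiPSC-EV miR-26a-5p ranged from −0.0026 to 0.52 and miR-378i from −0.0092 to 0.41 (negative without hiPSC-EV 1).

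Replicate numbers did not pair the libraries: 0 of 18 same-numbered pairs had a correlation of deviations over 0.1, and 4 of 12 libraries correlated best with their own number. With the replicate block, 17 miRNA were called between CMm-EV and CMi-EV, 99 between CMi-EV and hiPSC-EV, 137 between CMm-EV and hiPSC-EV, 66 miRNA and 667 transcripts in CPC-EV against the 3 other groups, and miR-26b-5p between CMm-EV and CMi-EV was −0.0009.

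Limits are 1 cell line, 3 cultures per group, and a depth at which miR-378a-5p, miR-378c, miR-378d and the host transcripts could not be compared.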

Other observations

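Besides miR-378a-3p, 11 other expressed miRNA had all 3 CPC-EV libraries below the 9 others on the TMM scale, found after seeing the data and given as values. They were miR-21-5p, miR-181a-5p, miR-30a-5p, miR-378i, miR-30e-5p, miR-1271-5p, miR-338-5p, miR-504-5p, miR-30c-5p, miR-149-5p and miR-30d-5p, of which 4 belong to the miR-30 family. The gap between the highest CPC-EV library and the lowest other library was 2.25-fold for miR-21-5p, 2.03-fold for miR-378a-3p, 1.84-fold for miR-181a-5p and 1.69-fold for miR-30a-5p. With library size only, miR-21-5p, miR-378a-3p, miR-181a-5p, miR-30a-5p and miR-378i were separate too.

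From day 0 to day 35, miR-181a-5p averaged 140, 18.0, 485 and 6875 CPM, and miR-30a-5p 3620, 1382, 5483 and 7646 CPM. Unlike miR-378a-3p, both had a higher mean in CMi-EV than in hiPSC-EV.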
